A study of Rattus norvegicus with 8 samples.

Results

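The genes that pack DNA into nucleosomes were followed across 8 RNA-seq libraries of SF2, a dental epithelial cell line that comes from the cervical loop of the rat lower incisor. They were taken as the rows of the deposited gene table that carry the Gene Ontology term for nucleosome assembly and that reached 1 CPM (the authors' unit, reads scaled to the size of the library) in at least 4 libraries. Of 30240 rows in the table, 74 carried the term and 45 met this rule: 5 linker histones, 9 core histones and variants, and 31 chaperones and other assembly factors. The libraries cover every combination of 3 labels, with 1 library each. The genotype is AmeloD-overexpressing or Control, the plasmid is pCMV6 or pCMV6.ODAM, and the last label is N or TGF. AmeloD is a basic helix-loop-helix transcription factor and ODAM is an enamel-organ protein. All 8 groups carry a pCMV6 plasmid and no group went without one. The labels do not give the TGF ligand, its dose or time, how the AmeloD cells were made, or whether they come from 1 clone, so the genotype difference may also hold differences between cell stocks.

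Library totals ran from 10568146 to 17775226 reads, and the AmeloD-overexpressing libraries were the shallower ones. Between 1662973 and 2854134 of these reads lay in the table. Ascl5, the gene of AmeloD, was listed at 0 in all 8 libraries, so the genotype label could not be checked with it. Odam was at 0.677 and 1.10 CPM in the pCMV6.ODAM libraries of Control and at 0.074 and 0.219 CPM in those of AmeloD-overexpressing cells, against at most 0.063 CPM in the pCMV6 libraries. Of 11 listed epithelial markers 9 were analysed here and 8 had reads, and their summed level was 807 to 904 CPM in AmeloD-overexpressing and 581 to 708 CPM in Control libraries. The ameloblast markers Amelx, Ambn, Enam, Amtn, Klk4 and Mmp20 had no read. Summed leukocyte markers were at 2.77 to 3.73 against 0.876 to 1.63 CPM (Lyz2 at 0), mesenchyme markers at 0.667 to 1.76 against 0.956 to 3.12 CPM (Col1a2 and Dcn at 0) and endothelial markers at 0.593 to 2.05 against 1.01 to 1.95 CPM (Kdr and Tek at 0). The part of these shifts in the results was not tested.

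A nucleosome is DNA wound around an octamer of the core histones H2A, H2B, H3 and H4, and a linker histone of the H1 family binds where the DNA enters and leaves. In dividing cells most histones are made during S phase from clustered genes whose mRNAs end in a stem-loop instead of a poly(A) tail, while replacement variants such as H3.3 are made throughout the cell cycle from polyadenylated mRNAs. Chaperones escort the histones: NASP holds soluble H3-H4, ASF1 passes it on, chromatin assembly factor 1 deposits it behind the replication fork, and DAXX with ATRX or the HIRA complex with ubinuclein deposits H3.3. The libraries were made from 3′ ends of polyadenylated RNA, so the levels of the clustered histone genes are those of whatever part of their RNA such a library captures.

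In AmeloD-overexpressing against Control libraries 3 of 5 linker histones, 2 of 9 core histone rows and 2 of 8 H3-H4 chaperones fell, and Macroh2a1 and Spty2d1 rose. Of the 45 genes, 10 fell and 2 rose (limma on log2(CPM + 1), all 8 libraries, genotype, plasmid and TGF as additive terms, adjusted over 6849 genes, threshold 0.05). Over all genes tested 4.75% fell and 9.07% rose. With TMM scaling 16 of the 45 passed, 2 of them higher, and the higher share of all calls was 52.5% instead of 65.6%. Without the C.pCMV6.ODAM.N library 7 of the 45 passed. The 4.75% and 9.07% belong to the first fit, so the counts with TMM and without this library stand without their background. The median difference, AmeloD-overexpressing minus Control on the log2(CPM + 1) scale, was -0.20 over the 45 genes and 0.05 over all genes. It was -0.48 for the linker histones, -0.02 for the core histones and -0.14 for the chaperones and factors. The 4 libraries of one genotype lay wholly below the 4 of the other for 10 genes and wholly above for 3 (background 5.53% and 9.49% of genes). Each of the 12 called genes kept its sign in all 4 pairs of libraries that differ in genotype alone. The calls came from these same libraries, so this is a description. Of all 45 genes 24 had the same sign in all 4 pairs. This count stands without its share over all genes, so it says nothing particular to the 45.

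The rule itself bears on the low members. At 1 CPM in all 8 libraries stood 35 of the 45 genes, and of these 7 fell and 2 rose. The 3 other genes that fell, H1f1, Chaf1a and a Hist1h3b row, were among 8 that reached 1 CPM in all 4 Control but in fewer AmeloD-overexpressing libraries, so they could enter only because their Control values were high. The lowest member by mean was Hat1 at 0.963 CPM, and the highest row left out was Kat6b at 1.10 CPM, with 3 libraries at 1 CPM. Of the 29 rows left out 13 were histones, namely the linker histones H1f6, H1f8, H1f10 and Hils1 and the core rows H2ab3, H3c1, H4f3, Hist1h2ao, Hist1h4b, LOC102548682, Macroh2a2 and a further Hist1h3b and LOC102549173 row. No row left out had over 114 reads in the 8 libraries together. In these bulk samples fewer cells with a transcript and less of it per cell cannot be told apart.

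**Figure D1:**
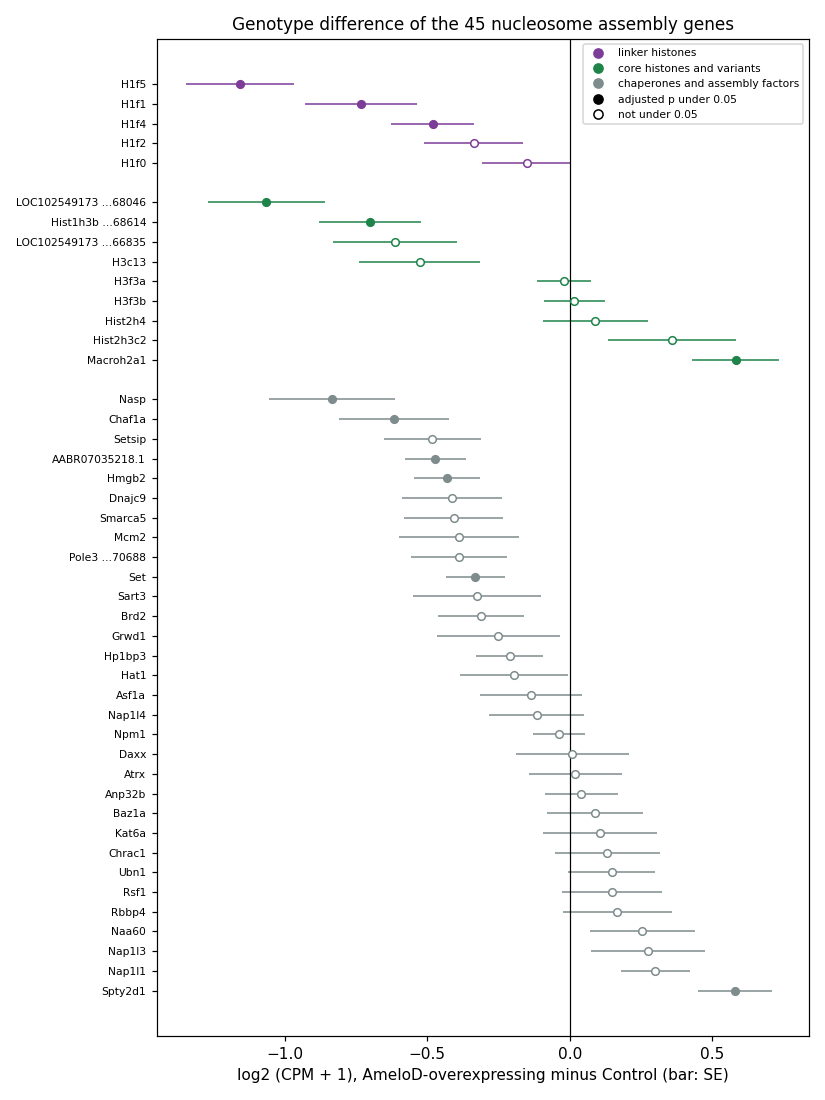
Genotype difference of each of the 45 genes on the log2(CPM + 1) scale (x axis, AmeloD-overexpressing minus Control), with its standard error as a bar and filled points where the adjusted p is under 0.05. All 5 linker histones lie left of 0, the core histones spread from -1.06 to 0.58, and the chaperones and factors from -0.83 to 0.58. Rows that share a symbol carry the end of their Ensembl identifier.

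All 5 members of the linker histone H1 family had lower means in AmeloD-overexpressing cells, H1f5, H1f1 and H1f4 fell, and H1f0 was higher in the pCMV6.TGF pair. Library values are given from here on as pCMV6.N, pCMV6.ODAM.N, pCMV6.TGF and pCMV6.ODAM.TGF, in that order. H1f5 stood at 1.42, 1.19, 2.03 and 1.24 CPM in AmeloD-overexpressing and at 4.51, 5.96, 3.66 and 3.96 CPM in Control libraries. The highest AmeloD-overexpressing value was thus below the lowest Control value. The difference was -1.16 ± 0.19 (SE; adjusted p = 0.000121) on the log2(CPM + 1) scale, from means of 1.47 ± 0.388 and 4.52 ± 1.02 CPM (SD, n = 4 libraries each), and it kept its call without any 1 library.

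H1f1 and H1f4 are further replication-dependent H1 genes of the same chromosome. H1f1 stood at 0.473, 0.742, 1.20 and 0.219 CPM in AmeloD-overexpressing and at 2.38, 1.42, 1.58 and 1.49 CPM in Control libraries. These are only 3 to 13 reads per AmeloD-overexpressing library and 21 to 38 per Control library, with no overlap. H1f1 fell by 0.73 ± 0.20 (SE; adjusted p = 0.0120), a call lost without A.pCMV6.N, A.pCMV6.ODAM.TGF or C.pCMV6.N (adjusted p 0.0580 to 0.0870). The call was also lost in limma without the CPM filter (adjusted p = 0.0697). H1f4 stood at 8.52, 6.82, 9.33 and 9.07 CPM against 12.02, 12.9, 10.4 and 13.3 CPM. Every Control library was again above every AmeloD-overexpressing one, by a smaller margin. H1f4 fell by 0.48 ± 0.15 (adjusted p = 0.0285), and the call was lost without A.pCMV6.ODAM.N, C.pCMV6.N, C.pCMV6.ODAM.N or C.pCMV6.ODAM.TGF (adjusted p 0.0713 to 0.153). H1f4 also lost its call in limma without the CPM filter and without the trend (adjusted p up to 0.0649).

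H1f2 and H1f0 did not pass the test. H1f2 stood at 2.55, 2.45, 3.79 and 2.34 CPM in AmeloD-overexpressing and at 3.69, 2.98, 4.05 and 4.29 CPM in Control libraries, so it was lower in each of the 4 pairs while the groups overlapped (-0.34 ± 0.17, adjusted p = 0.217). H1f0 is the replacement linker histone known from differentiated and resting cells. It stood at 7.10, 8.31, 9.70 and 8.63 CPM against 8.26, 9.07, 7.48 and 13.9 CPM, with the single high value in C.pCMV6.ODAM.TGF (-0.15 ± 0.16, adjusted p = 0.599). Together the 5 linker histones held 19.5 to 26.1 CPM in AmeloD-overexpressing and 27.2 to 36.9 CPM in Control libraries.

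**Figure D2:**
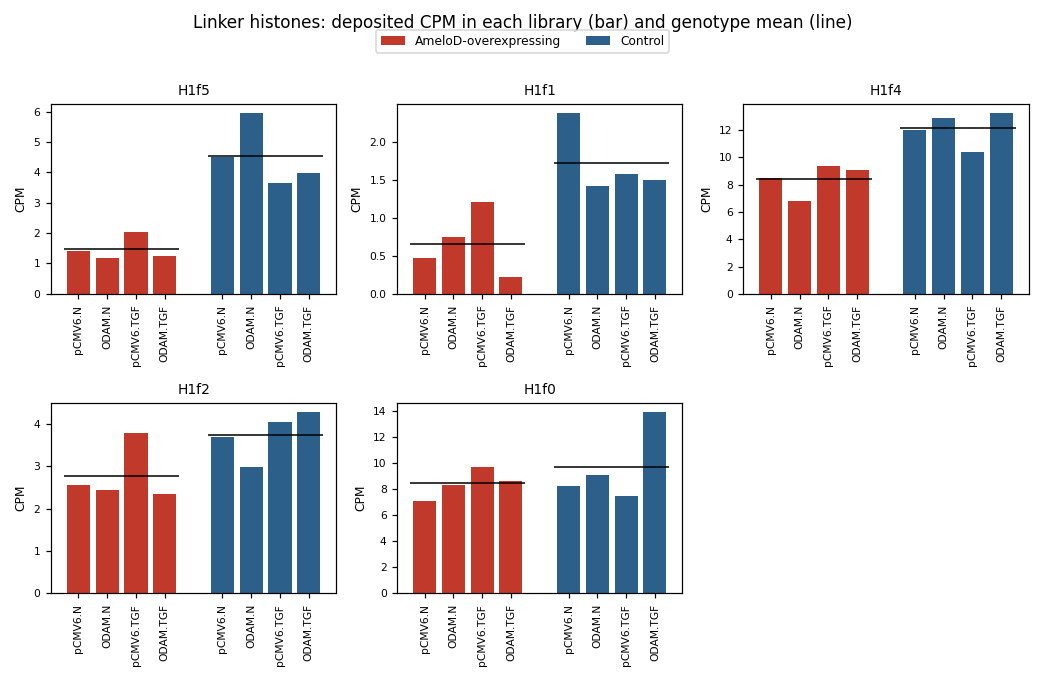
Deposited CPM (y axis, from 0) of the 5 linker histones in each library (bars; ODAM stands for pCMV6.ODAM) with the mean of each genotype as a line. For H1f5, H1f1 and H1f4 every Control bar is higher than every AmeloD-overexpressing bar, while those of H1f2 and H1f0 overlap.

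The promoters of the 5 linker histones are shown because 4 of them hold a forward CCAAT at nearly the same distance from the start and H1f0 holds none. Each line is the 150 bases before the RefSeq start of the gene (assembly GRCr8), 5′ to 3′ in the direction of transcription, with motifs in capitals. The motifs marked are CCAAT, the TATA box form TATAAA, and a box long known from H1 promoters, AAACACA. The windows are chr17:47421725-47421874 on the plus strand (H1f5), chr17:41794869-41795018 on the minus strand (H1f1), chr17:41914275-41914424 on the plus strand (H1f4), chr17:41820454-41820603 on the minus strand (H1f2) and chr7:112473130-112473279 on the plus strand (H1f0).
H1f5: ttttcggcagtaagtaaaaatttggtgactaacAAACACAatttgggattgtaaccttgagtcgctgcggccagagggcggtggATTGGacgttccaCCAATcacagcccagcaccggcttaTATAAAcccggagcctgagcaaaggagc
H1f1: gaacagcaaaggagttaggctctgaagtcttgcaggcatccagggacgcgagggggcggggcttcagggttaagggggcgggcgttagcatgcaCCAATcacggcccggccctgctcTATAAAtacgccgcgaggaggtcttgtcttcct
H1f4: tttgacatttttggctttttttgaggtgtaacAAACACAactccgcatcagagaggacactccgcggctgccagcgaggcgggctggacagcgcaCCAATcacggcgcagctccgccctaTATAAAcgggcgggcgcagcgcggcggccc
H1f2: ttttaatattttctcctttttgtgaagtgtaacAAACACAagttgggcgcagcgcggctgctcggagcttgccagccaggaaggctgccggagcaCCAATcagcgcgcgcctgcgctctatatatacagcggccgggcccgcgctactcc
H1f0: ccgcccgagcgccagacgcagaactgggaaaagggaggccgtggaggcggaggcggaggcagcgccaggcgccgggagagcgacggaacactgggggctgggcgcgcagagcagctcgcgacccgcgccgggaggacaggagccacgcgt

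Counted from the start, a forward CCAAT began at -53 in H1f5, at -56 in H1f1 and at -55 in both H1f4 and H1f2. TATAAA began at -28, -33 and -30 in H1f5, H1f1 and H1f4. H1f2 lacks this exact string but holds the letters tatatata between its CCAAT and the start, so the search does not set it apart. AAACACA began at -117 in H1f5 and H1f2 and at -118 in H1f4. H1f5 held further CCAAT matches at -168 and, on the reverse strand, at -66. Searched on both strands in windows of 250 bases before to 50 after the start, CCAAT lay in 37.5%, TATAAA in 14.2% and AAACACA in 6.995% of all 33469 promoters. Over the 30 members with a promoter in the table, CCAAT lay in 16, TATAAA in 5 and AAACACA in 3. The E2F-type motifs TTTNGCGC (1.29% of all promoters) and GCGCGAAA (0.326%), which can overlap each other, and ATTTGCAT (1.78%), the octamer of H2B promoters, lay in 4, 2 and 0 of the members and in none of the linker histones. A match is a description of these letters and was not tied to the differences in level.

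The core histone rows moved in different directions: 2 fell, Macroh2a1 rose and 6 did not pass. The largest difference was in a row named LOC102549173 (ENSRNOG00000068046, chr2:183795504-183809469, minus strand, mRatBN7.2), whose symbol does not say which core histone it encodes. It stood at 9.18, 7.64, 12.8 and 2.78 CPM in AmeloD-overexpressing and at 18.0, 16.1, 15.5 and 15.3 CPM in Control libraries. The Control values lay close together, and all were above the spread-out AmeloD-overexpressing values. The difference was -1.06 ± 0.20 (SE; adjusted p = 0.000722), and -0.71 without A.pCMV6.ODAM.TGF. Its exons share 2316 bases with a nameless row on the opposite strand that had 251 reads in all, and since the strand setting of the counting is not given, reads of the pair cannot be told apart.

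A Hist1h3b row, an H3 gene of the chromosome 17 cluster (ENSRNOG00000068614), stood at 1.51, 1.19, 0.739 and 0.366 CPM in AmeloD-overexpressing and at 2.63, 2.57, 1.74 and 1.56 CPM in Control libraries. It had 5 to 16 reads in the former and 24 to 42 in the latter, without overlap. It fell by 0.70 ± 0.18 (adjusted p = 0.00856) and kept its call without any 1 library. Its neighbours H3c13, also an H3 gene, and a further LOC102549173 row (ENSRNOG00000066835) had lower means without passing. H3c13 stood at 2.55, 2.37, 1.48 and 0.512 CPM against 2.88, 4.20, 3.43 and 1.17 CPM (-0.53 ± 0.21, adjusted p = 0.0994). The LOC102549173 neighbour stood at 2.55, 2.60, 3.70 and 0.878 CPM against 3.32, 5.15, 3.94 and 3.70 CPM (-0.61 ± 0.22, adjusted p = 0.0626). Both were lower in each of the 4 pairs, but the groups overlapped. The LOC102549173 neighbour passed with TMM (0.0446) or equal-median scaling (0.0424) and without A.pCMV6.TGF (0.00663) or C.pCMV6.N (0.0247), and H3c13 without C.pCMV6.N (0.0254).

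Macroh2a1 encodes macroH2A1, an H2A variant with a large extra domain that is known from silenced chromatin, and it went the other way. It stood at 8.71, 8.16, 6.84 and 8.71 CPM in AmeloD-overexpressing and at 5.57, 5.35, 4.28 and 5.13 CPM in Control libraries. The lowest AmeloD-overexpressing value exceeded the highest Control value. Macroh2a1 rose by 0.58 ± 0.15 (SE; adjusted p = 0.0104), and the call held without any 1 library.

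The rows for the replacement histone H3.3 showed no genotype difference that passed the test. The row named H3f3a (ENSRNOG00000006532) stood at 128, 120, 144 and 127 CPM in AmeloD-overexpressing and at 140, 120, 125 and 143 CPM in Control libraries (-0.02 ± 0.09, adjusted p = 0.928). The row named H3f3b (ENSRNOG00000003220) stood at 48.5, 44.1, 58.2 and 64.8 CPM against 45.9, 51.5, 51.7 and 63.4 CPM (0.02 ± 0.11, adjusted p = 0.951). Their standard errors were the smallest among the core histones. The table places these rows on chromosomes 10 and 13, whereas RefSeq places H3f3a on 13 and H3f3b on 10, so the symbols may be exchanged and the identifiers are the safer name. Hist2h4, an H4 gene, had 1.70 to 2.77 CPM against 1.63 to 2.08 CPM (0.09 ± 0.18, adjusted p = 0.813), and Hist2h3c2, an H3 gene, 0.757 to 4.08 CPM against 1.29 to 1.58 CPM (0.36 ± 0.22, adjusted p = 0.328).

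One library stood apart in the core rows. Summed over the 6 rows other than H3f3a, H3f3b and Macroh2a1, A.pCMV6.ODAM.TGF held 9.22 CPM (126 reads), the other AmeloD-overexpressing libraries 18.3 to 23.1 CPM and the Control libraries 25.1 to 31.2 CPM. It was the lowest of all 8 libraries for 6 of the 14 linker and core histone rows and for 13 of the 45 genes, against 10.9% of all genes. Hist2h3c2 and Hist2h4 did not share this low value. The sums of the AmeloD-overexpressing libraries lay below all Control sums with or without that library. They include the called LOC102549173 row of chromosome 2, at 2.78 to 12.8 CPM in AmeloD-overexpressing and 15.3 to 18.0 CPM in Control libraries. Hist1h3b, H3c13, Hist2h3c2 and the LOC102549173 neighbour reached 1 CPM in all Control but not in all AmeloD-overexpressing libraries. The sums are thus a description and no separate support for a drop across core histones. Both calls among the lower core rows held without it.

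**Figure D3:**
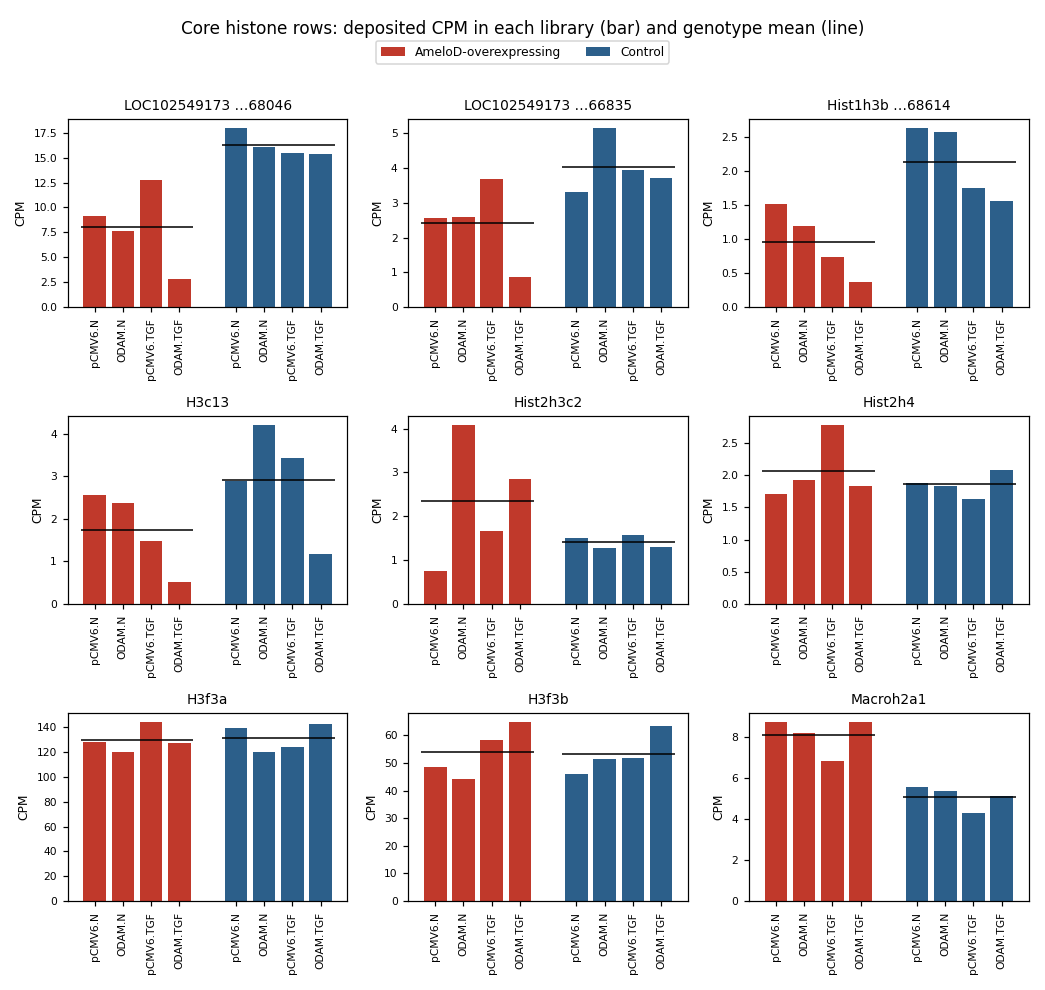
Deposited CPM (y axis, from 0, scaled per panel) of the 9 core histone rows in each library (bars) with the mean of each genotype as a line. The A.pCMV6.ODAM.TGF bar is the lowest of 8 in both LOC102549173 rows, Hist1h3b and H3c13, the H3f3a and H3f3b bars are level between genotypes, and Macroh2a1 is higher in all AmeloD-overexpressing libraries.

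The histone rows were also read by their position in the genome, which the choice of members did not use. Grouping rows with the term that lie within 500 kb of each other, 6 members fell in 1 stretch of chromosome 17 (chr17:41366268-41569109, mRatBN7.2, 202.8 kb): H1f1, the Hist1h3b row, the LOC102549173 neighbour, H3c13, H1f2 and H1f4. All 6 had a negative difference, from -0.73 to -0.34, and 3 fell, beside negative values for 2944 of all 6849 genes. The first 4 named reached 1 CPM in all Control but not in all AmeloD-overexpressing libraries, so the count of 6 is a description and supports nothing. The 4 other tested rows of that stretch, which lack the term, also had negative values (-0.97 to -0.08), and 2 of them were called. Among these, the H2A gene Hist1h2af was at -0.97 ± 0.17 (adjusted p = 0.000340). A second stretch (chr17:42480313-42769160) held H1f5 and Hist2h4, of which H1f5 fell. A stretch of chromosome 2 held the LOC102549173 row that fell and Hist2h3c2, which did not pass. The histones outside these clusters, H1f0, the H3f3a and H3f3b rows and Macroh2a1, included no gene that fell. The grouping distance was chosen after the values were seen, and near-identical histone copies may share reads, whose treatment the sources used here do not give.

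Among the chaperones that carry H3-H4, Nasp and Chaf1a fell, Spty2d1 rose and 5 did not pass. Nasp, the carrier of the soluble H3-H4 store, stood at 7.66, 5.71, 4.99 and 1.32 CPM in AmeloD-overexpressing and at 7.76, 10.5, 7.82 and 8.19 CPM in Control libraries. All 4 Control values were higher, but A.pCMV6.N came close to C.pCMV6.N, and A.pCMV6.ODAM.TGF was far below the rest. Nasp fell by 0.83 ± 0.22 (SE; adjusted p = 0.0109), and without A.pCMV6.ODAM.TGF the difference was -0.46 (adjusted p = 0.0847). The call was also lost without C.pCMV6.ODAM.N (0.0547) or C.pCMV6.ODAM.TGF (0.0947). With DESeq2, and in limma without the CPM filter or without the trend, Nasp did not pass either (adjusted p up to 0.160).

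Chaf1a, the large subunit of chromatin assembly factor 1, stood at 0.473, 0.297, 1.48 and 0.293 CPM in AmeloD-overexpressing and at 1.82, 1.29, 1.58 and 1.04 CPM in Control libraries. The others of the former had 4 or 5 reads, while A.pCMV6.TGF with 16 reads lay within the Control range of 16 to 29. Chaf1a fell by 0.62 ± 0.19 (adjusted p = 0.0322), a call kept without A.pCMV6.TGF or C.pCMV6.TGF and lost without any other library (adjusted p 0.0510 to 0.156). Chaf1a also lost its call with DESeq2 and in limma without the CPM filter (adjusted p up to 0.132). Its partner subunit Chaf1b had 40 reads in all and missed the filter. The 5 that did not pass were Asf1a, Mcm2, Rbbp4, Hat1 and Dnajc9, with differences from -0.41 (Dnajc9, adjusted p = 0.122) to 0.17 (Rbbp4, adjusted p = 0.641). Dnajc9, an H3-H4 cochaperone, had groups that did not overlap, at 2.03 to 3.56 and 3.70 to 4.11 CPM.

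Spty2d1, the homologue of yeast Spt2, which binds H3-H4 during transcription, stood at 30.5, 31.7, 27.7 and 42.1 CPM in AmeloD-overexpressing and at 23.9, 20.0, 21.1 and 21.2 CPM in Control libraries. It was higher in every AmeloD-overexpressing library than in any Control library. Spty2d1 rose by 0.58 ± 0.13 (adjusted p = 0.00310), and the call held without any 1 library.

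The promoters of the called H3-H4 chaperones and of Macroh2a1 are shown so that the genes that fell can be read against those that rose. The lines are again the 150 bases before the RefSeq start in GRCr8, 5′ to 3′ along the gene, with CCAAT or its reverse complement in capitals. They lie at chr5:135319592-135319741 on the minus strand (Nasp), chr9:961075-961224 on the plus strand (Chaf1a), chr1:106685872-106686021 on the minus strand (Spty2d1) and chr17:8484400-8484549 on the plus strand (Macroh2a1).
Nasp: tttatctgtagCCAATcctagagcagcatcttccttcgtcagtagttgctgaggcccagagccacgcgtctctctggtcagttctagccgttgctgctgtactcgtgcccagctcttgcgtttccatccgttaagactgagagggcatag
Chaf1a: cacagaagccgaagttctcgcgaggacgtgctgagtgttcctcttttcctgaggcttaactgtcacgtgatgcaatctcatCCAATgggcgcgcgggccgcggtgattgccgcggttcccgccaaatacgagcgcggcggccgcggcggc
Spty2d1: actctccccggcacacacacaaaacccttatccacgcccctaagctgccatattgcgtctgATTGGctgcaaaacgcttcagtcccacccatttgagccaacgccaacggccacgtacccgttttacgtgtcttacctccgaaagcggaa
Macroh2a1: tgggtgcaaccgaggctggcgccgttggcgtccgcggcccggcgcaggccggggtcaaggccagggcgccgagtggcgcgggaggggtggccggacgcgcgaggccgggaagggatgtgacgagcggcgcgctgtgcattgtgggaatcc

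CCAAT began at -139 in Nasp and at -69 in Chaf1a and, on the reverse strand, at -89 in Spty2d1, so both directions of change were found beside it. The Macroh2a1 window held none of the 6 motifs.

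The H3.3 deposition factors had no member past the test. Daxx (0.01 ± 0.20, adjusted p = 0.986), Atrx (0.02 ± 0.16, adjusted p = 0.961) and Ubn1 (0.15 ± 0.15, adjusted p = 0.599) all lay near 0, as did the H3f3a and H3f3b rows. Hira and Cabin1, also of the HIRA complex, missed the filter with 46 and 36 reads.

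Of 7 NAP, SET and acidic chaperones, which handle H2A-H2B and H1, only Set passed. Set stood at 42.1, 42.0, 47.8 and 49.0 CPM in AmeloD-overexpressing and at 54.3, 51.7, 60.3 and 62.4 CPM in Control libraries, without overlap. It fell by 0.33 ± 0.10 (SE; adjusted p = 0.0302), and although its value moved little, the call was lost without any 1 library other than A.pCMV6.ODAM.TGF (adjusted p 0.0532 to 0.0940). Set also lost its call in limma without the CPM filter and without the trend (adjusted p up to 0.138). Setsip, a gene whose sequence resembles Set, stood at 2.37 to 3.88 against 3.57 to 5.91 CPM and did not pass (-0.48 ± 0.17, adjusted p = 0.0586). It passed with TMM (0.0276) or equal-median scaling (0.0231), with scaling to the reads in the table (0.0470), with edgeR (0.0285) and without the trend (0.0479). How reads shared by the pair were counted is not given. Npm1, nucleophosmin, was at 195, 159, 192 and 144 CPM against 181, 175, 171 and 177 CPM (-0.04 ± 0.09, adjusted p = 0.848), level on average with a wider spread in the AmeloD-overexpressing libraries. Nap1l1 was higher in every AmeloD-overexpressing library, at 24.2 to 29.0 against 19.0 to 23.8 CPM, and did not pass (0.30 ± 0.12, adjusted p = 0.105).

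None of the 5 ATP-dependent assembly genes passed, with differences from -0.41 (Smarca5, the ISWI ATPase) to 0.15 (Rsf1). With TMM scaling Smarca5 (adjusted p = 0.0486) and Pole3 (0.04998), a histone-fold subunit of DNA polymerase epsilon, passed, as they did with equal medians (0.0454 and 0.04999). Among the 8 other factors Hmgb2 and AABR07035218.1 fell. Hmgb2, a DNA-bending high mobility group protein abundant in dividing cells, stood at 47.2, 70.2, 68.6 and 72.6 CPM in AmeloD-overexpressing and at 78.5, 97.0, 92.2 and 79.1 CPM in Control libraries. The groups did not overlap, and A.pCMV6.N was the lowest. Hmgb2 fell by 0.43 ± 0.12 (adjusted p = 0.0130), and the call was lost without A.pCMV6.N (-0.30, adjusted p = 0.117), C.pCMV6.ODAM.N (0.0889) or C.pCMV6.TGF (0.0851). Hmgb2 also lost its call in limma without the trend (adjusted p = 0.111). AABR07035218.1 is a row known only by its clone name. It stood at 35.9, 40.4, 37.8 and 45.2 CPM against 56.8, 59.9, 51.9 and 53.5 CPM, without overlap, and fell by 0.47 ± 0.11 (adjusted p = 0.00335) with the call kept without any 1 library.

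**Figure D4:**
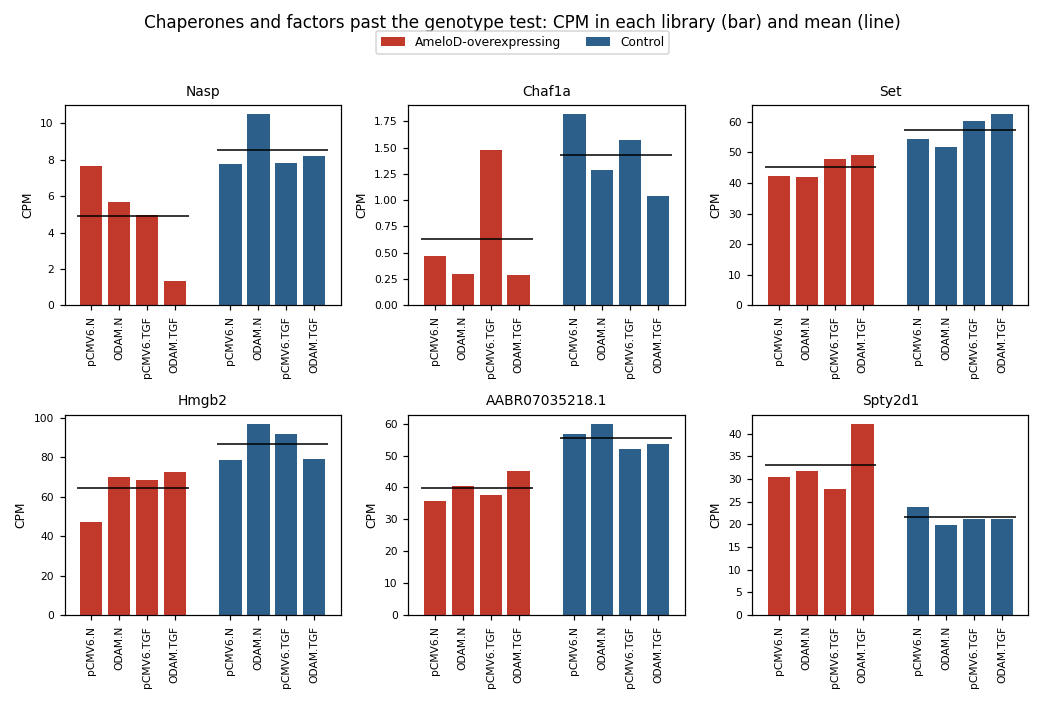
Deposited CPM (y axis, from 0, scaled per panel) of the 6 chaperones and factors past the genotype test in each library (bars) with the mean of each genotype as a line. Nasp has 1 very low bar in A.pCMV6.ODAM.TGF, Chaf1a overlaps through A.pCMV6.TGF, and Spty2d1 is the 1 gene with higher AmeloD-overexpressing bars.

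The genotype difference was also taken in the 4 N and the 4 TGF libraries separately, which share no library. In them 8 and 4 of the 45 passed. These counts stand without the share over all genes in the same fits, so they say nothing particular to the 45. The 12 genes were called on all 8 libraries together, so that each had the same sign in both is a description. Over the 45 genes 75.6% had the same sign in both, and over all genes 67.7%. Macroh2a1 was at 0.55 and 0.62 and Spty2d1 at 0.49 and 0.67 in N and TGF libraries. H1f5 was at -1.43 and -0.88, H1f1 at -0.84 and -0.63 and H1f4 at -0.64 and -0.32, so the 3 linker histones that fell were farther from 0 in N libraries. Nasp was at -0.40 and -1.27, the widest gap among the called genes. No gene of the 45 passed the test of this difference (limma, genotype by TGF interaction). Over all genes 0.0146% passed it, and 3 of the 45, Nasp, Sart3 and Kat6a, had an unadjusted p under 0.05 (282 of all 6849 genes), each with an adjusted p of 0.999. The edgeR and DESeq2 fits also called 0 of the 45.

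**Figure D5:**
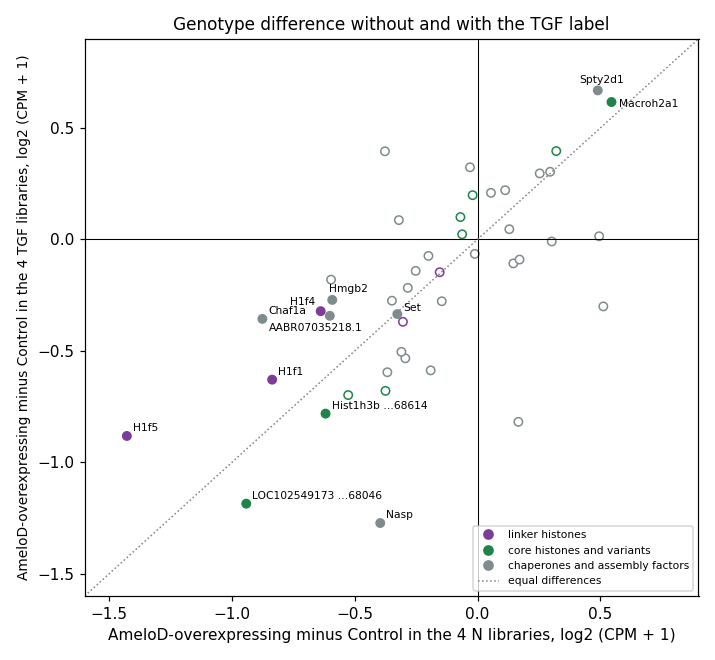
Genotype difference on the log2(CPM + 1) scale in the 4 N libraries (x axis) against that in the 4 TGF libraries (y axis) for the 45 genes, with the 12 called genes filled and named and a dotted line where both are equal. The called genes lie to the lower left or upper right of the zero lines, H1f5 above the dotted line and Nasp below it.

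For the TGF label none of the 45 genes passed the test (limma, adjusted p), while 1.81% of all genes passed, and edgeR and DESeq2 called 0 of the 45 as well. An unadjusted p under 0.05 was found for 816 of all 6849 genes and for 4 of the 45: H3c13, Hist1h3b, Nasp and H3f3b. H3f3b was the 1 gene among them with higher TGF values and with groups that did not overlap, at 58.2 and 64.8 CPM in AmeloD-overexpressing and 51.7 and 63.4 CPM in Control TGF libraries against 44.1 to 51.5 CPM in N libraries (0.32 ± 0.11, adjusted p = 0.168). H3c13 was at -0.69 ± 0.21 (adjusted p = 0.115), Hist1h3b at -0.52 ± 0.18 (adjusted p = 0.172) and Nasp at -0.60 ± 0.22 (adjusted p = 0.217). The linker histones had TGF differences from -0.09 to 0.23. Without C.pCMV6.N, 2 genes (Nasp and H3c13) passed, and without C.pCMV6.TGF H3c13 did.

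For the plasmid label none of the 45 genes passed in limma, edgeR or DESeq2, and 0% of all genes passed in limma. An unadjusted p under 0.05 was found for 454 of all 6849 genes and for 3 of the 45, each with an adjusted p of 0.710: the LOC102549173 row on chromosome 2 (-0.56 ± 0.20, pCMV6.ODAM minus pCMV6), Chaf1a (-0.44 ± 0.19) and Setsip (-0.43 ± 0.17).

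Genes around the pathway that lack the term or the role were read from lists drawn up beside it. Among S-phase genes, 17 were tested: 4 of them fell and 1 rose, against the 4.75% and 9.07% of all genes, and the median difference was -0.39. Rrm2, a ribonucleotide reductase subunit, was at 2.29 ± 1.05 against 5.08 ± 1.39 CPM (SD, n = 4; -0.91 ± 0.18, adjusted p = 0.00107), and Mcm3, of the replicative helicase, at 0.904 ± 0.379 against 2.23 ± 0.321 CPM (-0.78 ± 0.19, adjusted p = 0.00683). Mcm5 and Prim1 also fell, while Ccne1, cyclin E1, rose (0.75 ± 0.18, adjusted p = 0.00611). Mcm3, Mcm5 and Prim1 reached down to 0.568, 0.568 and 0.852 CPM in AmeloD-overexpressing libraries, under the filter level of 1 CPM. They may thus have entered the test through their Control values, and their p is no separate support. The part of the S-phase genes in the histone values was not tested. Of 16 tested genes of histone mRNA processing, among them the stem-loop binding protein gene Slbp (-0.26 ± 0.19, adjusted p = 0.432), 0 passed for genotype.

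Further chaperones outside the term split as well, beside 4.75% of all genes that fell and 9.07% that rose. Of 7 for H2A-H2B and H1, Npm3 (-0.55 ± 0.16, adjusted p = 0.0196) and Ncl, nucleolin (-0.36 ± 0.11, adjusted p = 0.0245), fell and Anp32a rose from 0.586 ± 0.230 to 3.81 ± 1.29 CPM (1.57 ± 0.19, adjusted p = 1.87e-06). Anp32a could enter the test only because its AmeloD-overexpressing values were high, so its p is no separate support. Of 8 ATP-dependent remodellers Hells, a helicase of heterochromatin, fell (41.1 ± 4.99 against 65.3 ± 5.59 CPM, adjusted p = 0.000139). Of 3 for H3-H4, Ipo4, the H3-H4 importin, rose (0.60 ± 0.20, adjusted p = 0.0454) and Pcna, the replication clamp, was at -0.52 ± 0.19 (adjusted p = 0.0685). Of 3 H2A variants H2aj rose (0.44 ± 0.09, adjusted p = 0.00137). For the 2 listed H3.3 and CENP-A deposition genes, 0 passed for genotype. For the TGF label 0 genes of these lists passed.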

How the data were processed

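RNA of 8 libraries, 1 per combination of labels, was counted in a deposited table. Per the labels' protocols, QIAseq UPX 3′ libraries were aligned to mRatBN7.2 with STAR and counted with featureCounts. Versions per the submitters' processing notes are STAR 2.7.10a, featureCounts 2.0.1, cutadapt 3.7, Trimmomatic 0.39 and Trim Galore 0.6.7. The authors deposited CPM scaled to the whole library. The sources used here do not give the use of molecular identifiers, the strand setting or the handling of shared reads. All values came out as whole reads (100%, tolerance 0.01); 1 read is 0.0563 to 0.0946 CPM.

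Differences were fitted with limma 3.58.1 (R 4.3.3, eBayes trend, two-sided, Benjamini-Hochberg) on log2(CPM + 1), a scale that understates changes of low genes, over the 6849 genes that reached 1 CPM in 4 libraries. With no replicated combination, the 4 residual degrees of freedom (3 with the interaction) hold interactions as well as spread, and nothing says that the libraries are separate cultures. edgeR 4.0.16 and DESeq2 1.42.0 on the recovered reads, other pseudocounts, filters and scalings, and leaving out libraries were alternatives. The scripts were tested on simulated data.

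Members, lists, roles (assigned by hand) and tests were chosen with earlier results of these data known; the motif AAACACA was added later. Named genes were all past the genotype test, the 2 highest and the extremes of each class, and list members past the test or with the smallest p. Of the 45 members 41 matched RefSeq by symbol, 39 on the same chromosome. Promoters are RefSeq's (GRCr8), matched for 30 members. The H3f3a and H3f3b rows were left out because their chromosome disagreed. H3c13, Hist1h3b and Hist2h3c2 were left out by hand because such core histone symbols name several loci.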

Additional observations from a re-analysis of the deposited data

How the results depend on the processing

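For genotype, 12 of the 45 genes passed, and no called gene changed direction under any alternative. The count was 7 without the CPM filter and 4 in the TGF libraries alone, a fit on fewer libraries. Leaving out 1 library gave 7 to 12, lowest without C.pCMV6.ODAM.N. It was 16 with TMM or equal-median scaling, 13 with edgeR, 9 with DESeq2 and 9 without the trend, with 2 that rose in each. It was 8 in the N libraries alone and 8 of the 23 members tested at 5 CPM. The counts of these alternatives stand without the shares of all genes that fell and rose in the same fits. They thus say nothing particular to the 45. Scaling moved the split of all genotype calls: 621 of 946 were higher in CPM (65.6%), 52.5% of 1013 with TMM and 49.0% of 1000 with equal medians. H1f5, Hist1h3b, Macroh2a1, Spty2d1 and AABR07035218.1 kept their calls under the tools, scalings, pseudocounts and filters tried and without any 1 library, except that H1f5 and Hist1h3b were not tested at 5 CPM. The LOC102549173 row on chromosome 2 lost its call with DESeq2 alone (adjusted p = 0.0536). Nasp, Chaf1a, Set, Hmgb2, H1f1 and H1f4 lost theirs under some of these settings, as given above. For TGF, leaving out 1 library gave 0 to 2 genes, and all-gene calls fell from 124 to 62 without the trend. All-gene interaction calls were 0 to 7. Each combination has 1 library, so there are no replicate numbers by which libraries could be paired. With the 4 pairs of libraries that differ in genotype alone as a block, a fit chosen after seeing the data, 13 passed: the 12 kept their calls, and the LOC102549173 neighbour on chromosome 17 was added (adjusted p = 0.0408). Depth limits H1f1, Chaf1a and Hist1h3b, which had 121 to 180 reads in all: a count of 0 would allow up to 3 reads, 0.169 to 0.284 CPM, and this covers counting error only.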

Other observations

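Histone rows without the nucleosome assembly term lay among those with it. H2ac12, an H2A gene of the second chromosome 17 stretch, was at 2.46, 5.12, 3.33 and 1.90 CPM in the AmeloD-overexpressing and at 5.63, 6.23, 3.38 and 5.98 CPM in the Control libraries, again as pCMV6.N, pCMV6.ODAM.N, pCMV6.TGF and pCMV6.ODAM.TGF. It fell by 0.62 ± 0.20 (SE; adjusted p = 0.0372), and the groups overlapped. In the first stretch hist1h2ail2 (-0.40 ± 0.18, adjusted p = 0.143) and Hist1h2bq (-0.08 ± 0.21, adjusted p = 0.847) did not pass. Of 7 high mobility group genes without the term, Hmgn2 fell (-0.69 ± 0.21, adjusted p = 0.0304), Hmgn3 rose (0.57 ± 0.19, adjusted p = 0.0453) and 5 did not pass, among them Hmgb1 (-0.22 ± 0.18, adjusted p = 0.456) and Hmgn1 (-0.29 ± 0.12, adjusted p = 0.115). Hmgb2, the high mobility group member with the term, fell. The HMGN proteins bind the nucleosome itself, and the 2 that passed went in opposite directions.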
